A study of Juglans regia with 12 samples.

Results

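The mature sequences matched by name to miR472, miR482, miR2118, miR828 and miR858 were examined in flower buds of Persian walnut (Juglans regia), where they made up 47 of the 931 listed miRNA sequences. Members were taken by the number after "miR" in the matched miRNA name, a rule that uses no measured value. The choice of these families was made with earlier results of these data known. There were 37 rows of miR482, 2 of miR2118, 1 of miR472, 6 of miR858 and 1 of miR828. The table's own family column gave no family to 3 of these rows and placed 1 row matched to miR2118 under MIR482.

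The buds came from field-grown trees at Aksu in Xinjiang of an early-flowering, precocious walnut labelled ZS and of a late-flowering walnut labelled WS and described as late fruiting, with 3 small RNA libraries of each type. The labels give the stage "Early flower" to the first type and "Late flower" to the second, so that walnut type and bud stage cannot be told apart. They do not say that replicates came from separate trees, and p-values therefore measure only the spread between these libraries, which may be technical. The libraries held 309697 to 646408 counts of listed miRNAs, the lowest total being that of early-flowering replicate 1. A floor of 3 counts corresponded to 4.76 to 10.3 CPM, the count scaled to a common library size after TMM correction for differences in make-up. The 31425 gene IDs of the companion mRNA table carry no names and 0 of them matched the reference gene table, so targets of these miRNAs and markers of the bud tissue were not examined.

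As background, miR482 and miR2118, with the related miR472, form a superfamily whose members pair with the sequence that encodes the P-loop of NBS-LRR disease resistance genes. Most plant miRNAs have 21 bases and act by cutting the target transcript. Forms with 22 bases instead recruit RDR6 and DCL4 to the cut transcript, which is then converted into phased secondary siRNAs (phasiRNA) that spread silencing across related genes. miR828, also a 22-base miRNA, triggers such siRNAs from TAS4 and from MYB transcripts, and miR858 cuts transcripts of R2R3-MYB factors, many of which govern flavonoid synthesis.

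The sequences below carry the results, written 5′ to 3′ as in the deposited table, with the seed (bases 2 to 8) in capitals. The first 6 are 22-base members of the miR482 superfamily, ordered by shared seed.
jre-MIR482-23: tCTTTCCTactcctcccattcc
jre-MIR482-8: tCTTTCCTagtcctcccattcc
jre-MIR482-22: tCTTCCCTactcctcccattcc
jre-MIR482-24: tCTTCCCTagtcctcccattcc
jre-MIR482-2: tCCCTACTccgcccatgccata
jre-MIR482-5: tTCCCAAAgccgcccattccga
Both sequences that follow are matched to the 5p arm of miR482 in another species, the arm opposite to the one that usually pairs with NBS-LRR transcripts.
jre-MIR482-28: gGAATGGGctgtttgggatga
jre-MIR482-14: tAGGAATGggctgtttggga
The last 3 are the MYB-targeting members, of which the first has 22 bases.
jre-MIR828-1: tCTTGCTCaaatgagtattcca
jre-MIR858-3: cTCGTTGTctgttcgaccttg
jre-MIR858-2: tCTCGTTGtctgttcgacctt

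Counted from the 5′ end, jre-MIR482-23 and jre-MIR482-8 differ by C10G, outside the seed. jre-MIR482-22 differs from jre-MIR482-23 by T5C, and jre-MIR482-24 differs from jre-MIR482-8 by T5C, so that jre-MIR482-22 and jre-MIR482-24 share a second seed. Over the libraries they held only 0.234% to 0.404% and 0.275% to 0.423% of the counts of those relatives. Whether rows that differ by 1 base are read errors, alleles or separate miRNA genes was not tested. A further 5 members with at least 60 counts in total carry the seed of jre-MIR482-23, namely jre-MIR482-9, jre-MIR482-16, jre-MIR482-29, jre-MIR482-33 and jre-MIR482-30. Of the 35 superfamily rows not matched to a 5p arm, 33 contain CCCAT on the strand written here (94.3%), against 13 of the 884 rows outside the members (1.47%). None of the 5 rows matched to a 5p arm does (0 of 5). Of these 5, 3 hold its reverse complement ATGGG, against 5 of the 884 other rows (0.566%). Rows were taken by the miRNA name they match, so these counts describe the members and test nothing. The reverse complement of jre-MIR482-28 was aligned with each of the 11 named superfamily sequences not matched to a 5p arm. The best score was that of jre-MIR482-5, 14 with 17 matching bases, against scores of at most 9 for the rest. By matching bases the lead was small, as jre-MIR482-22 and jre-MIR482-24 each had 16.

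Counts were concentrated in few rows. The miR482 family ranked 4 among 345 families by mean level, and 5 sequences (jre-MIR482-2, jre-MIR482-28, jre-MIR482-23, jre-MIR482-8 and jre-MIR482-5) held 99.1% to 99.2% of the superfamily counts in each library. Of the 47 members, 15 had at least 60 counts over the 6 libraries, and the other 32 together held 388 counts, or 0.131% of the members' total. The lowest row above that limit was jre-MIR482-30 with 67 counts and the highest below it was jre-MIR482-27 with 56. Of those 32, 10 rows had a single count and 21 had at most 5. The filter on low counts left 14 members for testing, which are those with at least 60 counts apart from jre-MIR482-30.

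**Figure D1:**
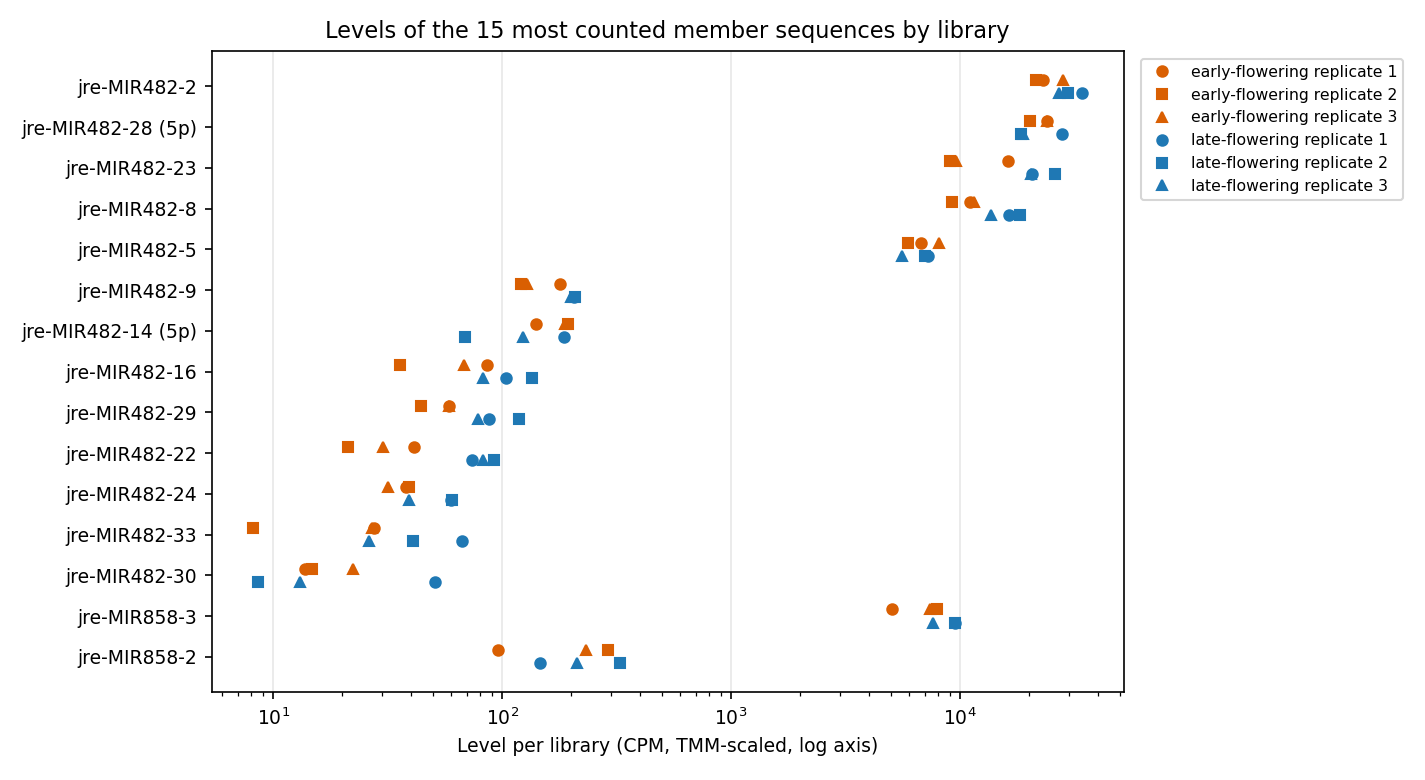
CPM on a log axis for each of the 15 member sequences with at least 60 counts, 1 point per library, early-flowering in orange and late-flowering in blue. jre-MIR482-23 and jre-MIR482-8 stand lower in all 3 early-flowering libraries, whereas jre-MIR482-2, jre-MIR482-28 and jre-MIR482-5 overlap between types.

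The first question was whether the summed families differed between bud types. The miR482 family stood at 81936, 66392 and 81915 CPM in early-flowering replicates 1 to 3 and at 107320, 100194 and 86219 CPM in late-flowering replicates 1 to 3. All 3 early-flowering libraries were lower than all 3 late-flowering ones, with means of 76748 ± 8968 CPM and 97911 ± 10735 CPM (SD, n = 3 each). The difference did not pass the test (log2 fold change early minus late −0.35, SE 0.17, edgeR adjusted p = 0.226, over 37 families). Groups did not overlap in the lower direction for 10.8% of tested families, 13.5% of families passed in either direction and 5.41% were called lower. As a share of all listed miRNA counts, the superfamily held 7.69%, 6.65% and 7.98% in early-flowering libraries and 9.94%, 10.4% and 9.75% in late-flowering ones, with 95% Wilson intervals of at most 0.0938 points on either side, for counting error only. A large part of the denominator was miR159. It held 39.2%, 47.6% and 49.4% of counts in early-flowering and 37.7%, 29.7% and 31.6% in late-flowering libraries. With miR159 set aside, an alternative chosen after seeing the data, the superfamily held 12.7%, 12.7% and 15.8% against 16.0%, 14.9% and 14.3%, and the groups overlapped.

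miR858 stood at 5174, 8291 and 7643 CPM in early-flowering and at 9648, 9816 and 7886 CPM in late-flowering libraries. The early-flowering replicate 2 lay above the lowest late-flowering library, so the groups overlapped, and the family did not pass (log2 −0.37, SE 0.22, edgeR adjusted p = 0.293). miR828 was near the detection floor, with 2, 3 and 7 counts in early-flowering and 9, 7 and 6 in late-flowering libraries, and was not tested. In CPM it stood at 7.63 ± 3.17 against 14.01 ± 2.45 (SD, n = 3 each). The miR2118 rows summed to 1, 2 and 7 counts against 4, 6 and 7, and miR472 had 1 count, in late-flowering replicate 1.

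The second question was how many of the counts came from 22-base forms. In the miR482 superfamily this share was 70.4%, 69.3% and 70.5% in early-flowering replicates 1 to 3 and 73.8%, 81.5% and 77.997% in late-flowering replicates 1 to 3. The early-flowering libraries lay within little more than a percentage point of each other and below all late-flowering ones, which spread more widely. The means were 70.1% ± 0.661 and 77.7% ± 3.86 (SD, n = 3 each), a difference of −7.67 percentage points (exact two-sided permutation p = 0.1, the smallest that 3 against 3 libraries allow). Each library's 95% Wilson interval was at most 0.580 points wide on either side.

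Among superfamily rows not matched to a 5p arm, 99.9% of counts in each of the 6 libraries came from 22-base sequences. The other lengths came almost wholly from the 21-base jre-MIR482-28, matched to the 5p arm, so the 22-base share followed the balance between it and the remaining rows. Rows matched to 5p held 29.5%, 30.6% and 29.4% of superfamily counts in early-flowering libraries and 26.2%, 18.4% and 21.9% in late-flowering ones. The means were 29.9% ± 0.656 and 22.2% ± 3.87 (SD, n = 3 each; difference 7.68 points, exact two-sided permutation p = 0.1), with no overlap. In CPM, the rows matched to 5p stood at 22883 ± 2211 against 21830 ± 5433 and overlapped, and the remaining rows at 53871 ± 6760 against 76093 ± 7691 and did not overlap.

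The 22-base share outside the members also differed in this direction, at 7.26%, 4.70% and 5.04% in early-flowering and 9.39%, 8.51% and 8.29% in late-flowering libraries, again without overlap. Its part in the superfamily's difference was not tested. Superfamily sequences made up 44.8% to 55.0% of all 22-base counts over the 6 libraries, and both groups spanned most of that range. The MYB-targeting members were nearly all 21-base forms, with 0.112% ± 0.0466 of counts from 22-base sequences in early-flowering and 0.153% ± 0.0108 in late-flowering libraries (SD, n = 3 each; exact two-sided permutation p = 0.2). All of these 22-base counts belong to jre-MIR828-1.

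**Figure D2:**
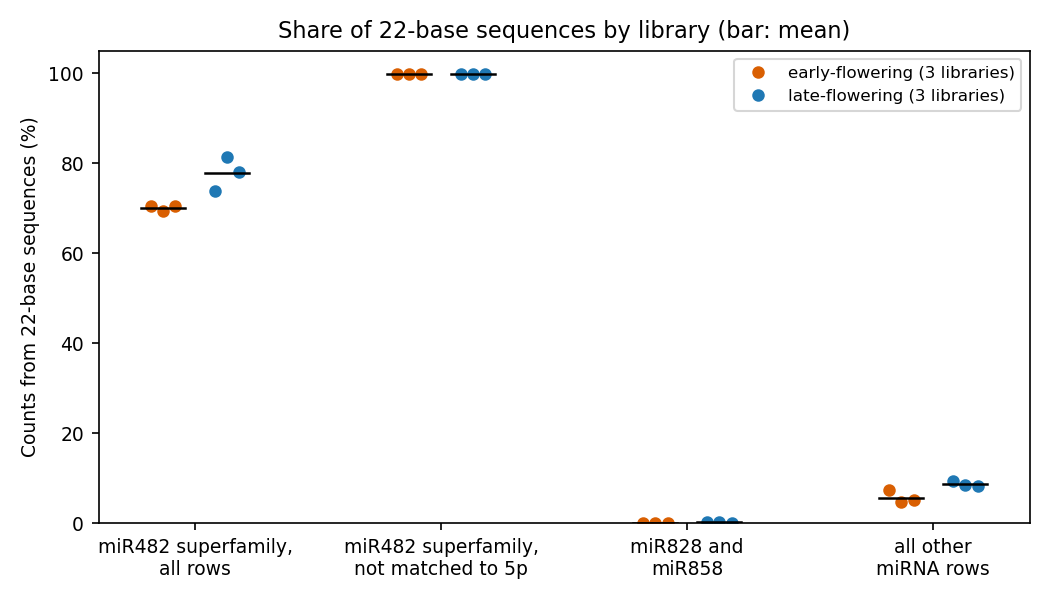
Percent of counts from 22-base sequences, 1 point per library and a bar for the mean of 3, early-flowering in orange and late-flowering in blue. The superfamily's share is 69.3% to 70.5% in early-flowering and 73.8% to 81.5% in late-flowering libraries, but 99.9% in all of them once rows matched to 5p are set apart.

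Single sequences were then compared in a fit over all 243 sequences that passed the filter, of which 11.5% passed the test in either direction and 6.58% were lower in early-flowering buds. Of the 14 tested members, 1 fell, jre-MIR482-22, and 0 rose. At an unadjusted p under 0.05 there were 4, against 34.2% of all tested sequences. Fold changes were negative for 11 and positive for 3 of the 14, against 43.2% negative over all, and their median was −0.54 against 0.13. The 14 include near-identical sequences and are not independent. With near-identical rows joined over all sequences, 4 of 7 tested members were negative, and their median was −0.37 against 0.10. Groups did not overlap for 6 of the 14, all lower in early-flowering buds, whereas 17.7% of all tested sequences were lower without overlap and 37.4% did not overlap in either direction. These 6 were jre-MIR482-23, jre-MIR482-8, jre-MIR482-9, jre-MIR482-29, jre-MIR482-22 and jre-MIR482-24. All but the first 2 of them differ by 1 base from jre-MIR482-23 or jre-MIR482-8. Each held 0.234% to 1.62% of that relative's counts, so the 6 cannot be counted as separate results beside the 17.7%.

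**Figure D3:**
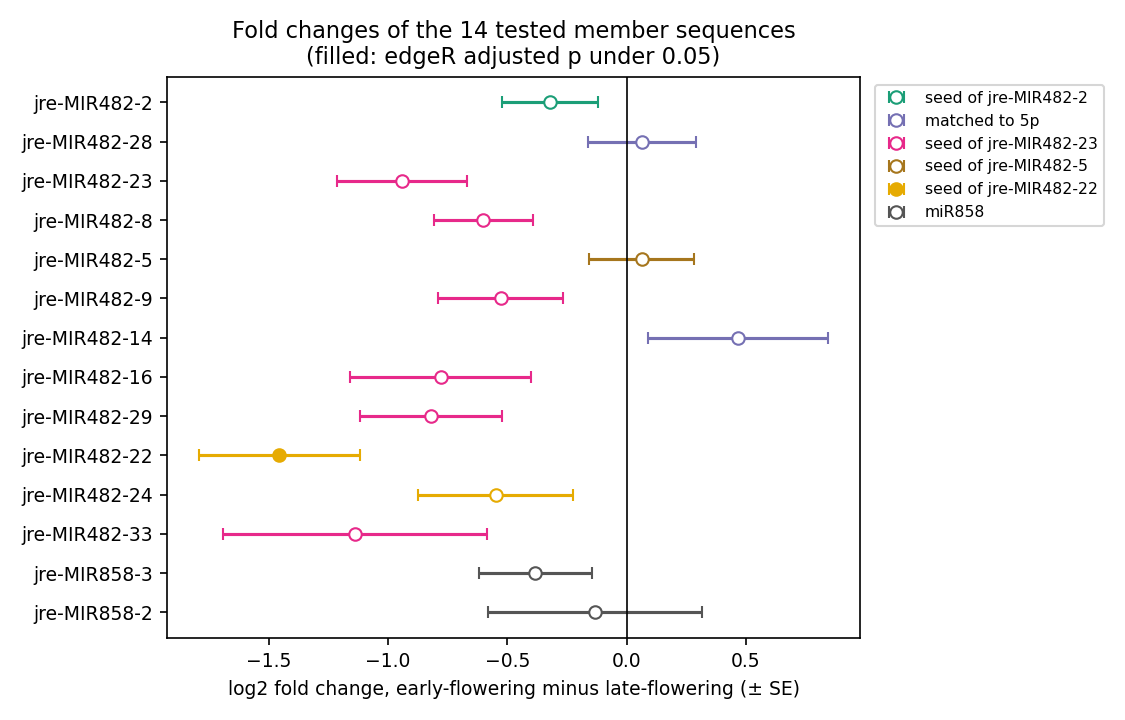
Log2 fold change, early-flowering minus late-flowering, with its standard error for the 14 tested members, coloured by seed group, with a filled point where the edgeR adjusted p was under 0.05. Only jre-MIR482-22 is filled. All sequences with the seeds of jre-MIR482-23 and jre-MIR482-22 lie below 0, as do jre-MIR482-2, jre-MIR858-3 and jre-MIR858-2.

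jre-MIR482-23, the most abundant sequence with its seed over the 6 libraries and matched to pde-miR482a, stood at 16224, 9075 and 9583 CPM in early-flowering replicates 1 to 3 and at 20691, 26001 and 20331 CPM in late-flowering replicates 1 to 3. Early-flowering replicate 1 lay between the other early-flowering libraries and the late-flowering ones. The means were 11627 ± 3989 and 22341 ± 3175 CPM (SD, n = 3 each), and the difference missed the threshold (log2 −0.94, SE 0.27, edgeR adjusted p = 0.0591). It passed without early-flowering replicate 1 (log2 −1.31, edgeR adjusted p = 0.0107), under DESeq2 size factors (edgeR adjusted p = 0.0436) and in the DESeq2 test (adjusted p = 0.000815), among 6 of 13 alternatives in which it passed. It did not pass when any of the other 5 libraries was left out, with edgeR adjusted p-values of 0.0584 to 0.151.

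jre-MIR482-8, matched to fve-miR482b, stood at 11074, 9258 and 11542 CPM in early-flowering libraries and at 16383, 18334 and 13631 CPM in late-flowering ones. The groups did not overlap, but the difference did not pass (log2 −0.60, SE 0.21, edgeR adjusted p = 0.0995), except in the DESeq2 test (adjusted p = 0.0134). jre-MIR482-22, matched to pab-miR482a, had 12, 13 and 19 counts in early-flowering and 42, 43 and 44 in late-flowering libraries, or 30.9 ± 10.04 against 82.7 ± 9.29 CPM (SD, n = 3 each; log2 −1.46, SE 0.34, edgeR adjusted p = 0.0272). All 3 early-flowering libraries were lower. The call was lost without early-flowering replicate 2 (edgeR adjusted p = 0.1001) and without late-flowering replicate 1, 2 or 3 (edgeR adjusted p = 0.0561, 0.0980 and 0.119), while the log2 value stayed between −1.71 and −1.28 over the libraries left out.

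The remaining named sequences close to this pair were rare. In all, 7 named 22-base sequences differ by 1 substitution from jre-MIR482-23 or jre-MIR482-8, and they averaged 16.9 to 143 CPM in early-flowering and 24.2 to 205 CPM in late-flowering libraries. jre-MIR482-9, T20C relative to jre-MIR482-8, held 1.11% to 1.62% of that sequence's counts in every library, with overlapping groups. jre-MIR482-22 held 0.254%, 0.234% and 0.315% of the counts of jre-MIR482-23 in early-flowering libraries and 0.356%, 0.355% and 0.404% in late-flowering ones, without overlap. jre-MIR482-24 held 0.275% to 0.423% of jre-MIR482-8, with overlap. How reads were divided between rows that differ by 1 base is not stated in the sources, so the counts of these rarer rows are uncertain. When such near-identical rows were joined over all sequences, jre-MIR482-22 became part of jre-MIR482-23. The joined jre-MIR482-23 passed (log2 −1.02, SE 0.25, edgeR adjusted p = 0.0272), where 9.09% of the 143 joined sequences were called lower. Joining changed its counts little, from 4716 to 4753 in early-flowering replicate 1, but also changed the scaling and the number of sequences tested. jre-MIR482-2, whose counts stayed the same, moved from log2 −0.32 to −0.37. Why jre-MIR482-23 passed was not tested.

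jre-MIR482-2, the most abundant member, stood at 23142, 21437 and 28174 CPM in early-flowering and at 34146, 29553 and 27170.3 CPM in late-flowering libraries. Early-flowering replicate 3 lay above the lowest late-flowering library, and the difference did not pass (log2 −0.32, SE 0.20, edgeR adjusted p = 0.264). jre-MIR482-5 stood at 6774, 5942 and 8068 CPM against 7276, 7043 and 5578 CPM, with overlap (log2 0.06, SE 0.22, edgeR adjusted p = 0.844). jre-MIR482-28, whose reverse complement aligned best with it, stood at 24057, 20135 and 23931 CPM against 27911, 18415 and 18774 CPM, also with overlap (log2 0.07, SE 0.23, edgeR adjusted p = 0.844). The sign of both values turned under scaling by total counts and under TMM without the most abundant sequence. The rarer jre-MIR482-14 starts 2 bases earlier and ends 3 bases earlier than jre-MIR482-28, and it overlapped between types at 174 ± 29.0 against 126 ± 58.7 CPM (log2 0.47, SE 0.38, edgeR adjusted p = 0.370).

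Ratios inside a library, which no scaling alters, describe the same members. The count of jre-MIR482-28 was 3.55, 3.39 and 2.97 times that of jre-MIR482-5 in early-flowering libraries and 3.84, 2.61 and 3.37 times in late-flowering ones, so jre-MIR482-28 was the more abundant in every library and the groups overlapped. Whether both come from the same precursor was not examined. The ratio of jre-MIR482-5 to jre-MIR482-2 was 0.293, 0.277 and 0.286 in early-flowering and 0.213, 0.238 and 0.205 in late-flowering libraries, without overlap. The ratio of jre-MIR482-8 to jre-MIR482-2 was 0.479, 0.432 and 0.410 against 0.480, 0.620 and 0.502, where early-flowering replicate 1 and late-flowering replicate 1 nearly met. The ratio of jre-MIR482-23 to jre-MIR482-2 was 0.701, 0.423 and 0.340 against 0.606, 0.880 and 0.748, with early-flowering replicate 1 above the lowest late-flowering library. These ratios were chosen with the values known and were not tested.

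Grouped by seed, the superfamily's make-up differed between types in a few parts. Of all superfamily counts, the seed group of jre-MIR482-23 and jre-MIR482-8 held 33.8%, 28.0% and 26.2% in early-flowering and 35.0%, 44.8% and 39.8% in late-flowering libraries. The groups did not overlap, but early-flowering replicate 1 came within little more than a percentage point of late-flowering replicate 1. Among rows not matched to 5p, the share of this seed group overlapped, at 47.9%, 40.3% and 37.1% against 47.4%, 54.9% and 51.0%. The seed group of jre-MIR482-5 held 8.28%, 8.96% and 9.86% of superfamily counts in early-flowering and 6.79%, 7.04% and 6.48% in late-flowering libraries, higher in all 3 early-flowering ones. The seed group of jre-MIR482-2 held 28.2% to 34.4% against 29.5% to 31.8% and overlapped. In CPM, the seed group of jre-MIR482-23 averaged 22550 ± 4654 against 38932 ± 5370 (SD, n = 3 each) without overlap, and that of jre-MIR482-5 averaged 6937 ± 1072 against 6642 ± 922 with overlap.

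**Figure D4:**
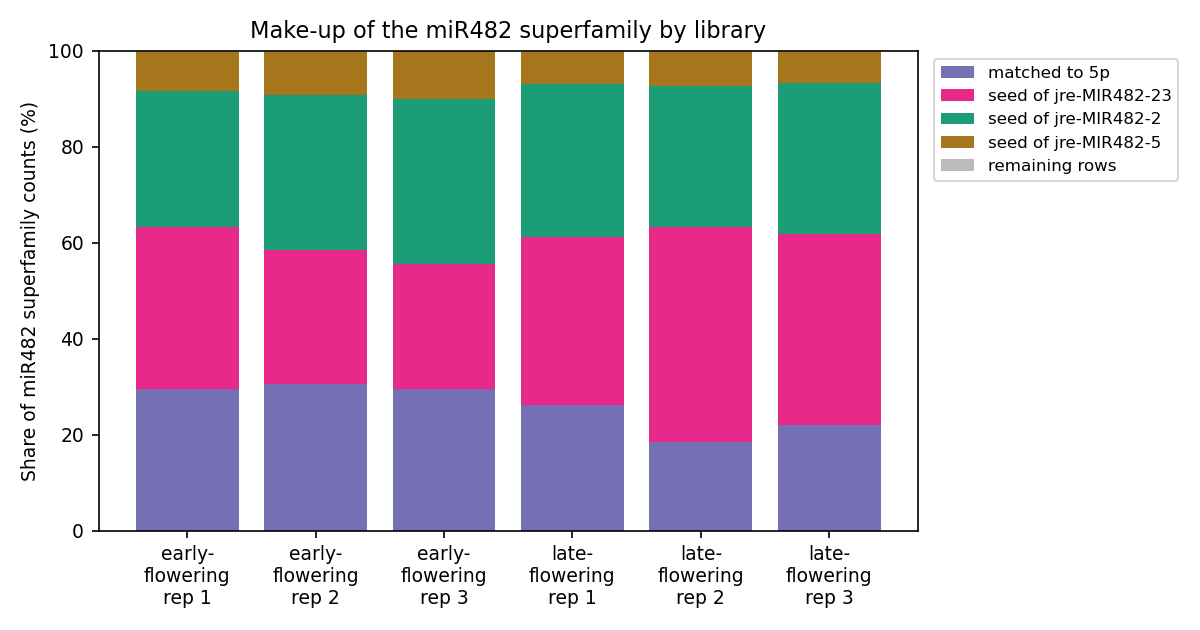
Percent of miR482 superfamily counts per library, stacked by rows matched to 5p and by seed group. The band of the jre-MIR482-23 seed is 26.2% to 33.8% in early-flowering and 35.0% to 44.8% in late-flowering libraries, and the band matched to 5p is 29.4% to 30.6% against 18.4% to 26.2%.

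Among MYB-targeting members, jre-MIR858-3, matched to csi-miR858-3p, held 96.1% to 98.1% of the summed miR828 and miR858 counts. It stood at 5067, 7971 and 7378 CPM in early-flowering and at 9483, 9470.5 and 7651 CPM in late-flowering libraries. The groups overlapped because early-flowering replicate 2 lay above late-flowering replicate 3, and the difference did not pass (log2 −0.38, SE 0.24, edgeR adjusted p = 0.264). jre-MIR858-2 starts 1 base earlier on the same 20 shared bases, which shifts its seed by that base. It was counted at 1.90%, 3.63% and 3.16% of jre-MIR858-3 in early-flowering and 1.54%, 3.44% and 2.78% in late-flowering libraries, with overlapping groups. The summed miR828 and miR858 rows averaged 7044 ± 1645 against 9131 ± 1071 CPM (SD, n = 3 each; exact two-sided permutation p = 0.2).

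For comparison, 16 further families were considered, comprising other phasiRNA triggers and miR159, which targets GAMYB-type MYB genes. The table held 8 of them and 4 passed the filter, of which 0 rose and 0 fell in the edgeR test, where 13.5% of all families passed. At an unadjusted p under 0.05 there were 9 families in all. miR390, which acts on TAS3 to give siRNAs against auxin response factors, stood at 1999, 2643 and 2830.2 CPM in early-flowering and 2017, 1528 and 1527 CPM in late-flowering libraries, with early-flowering replicate 1 inside the late-flowering range (log2 0.56, SE 0.23, edgeR adjusted p = 0.171). miR393, which targets the TIR1 and AFB auxin receptors, averaged 513 ± 49.2 against 589.9 ± 77.7 CPM (log2 −0.20, edgeR adjusted p = 0.594). miR7122 averaged 74.2 ± 36.0 against 54.8 ± 28.9 CPM (log2 0.46, edgeR adjusted p = 0.587). miR159 averaged 466870.0 ± 45094 against 323722 ± 72067 CPM, with all 3 early-flowering libraries higher than the late-flowering ones, and it did not pass (log2 0.53, SE 0.17, edgeR adjusted p = 0.0829). The other 4 listed families had 1 to 3 counts each.

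The families closest in profile to the summed superfamily, by the root mean square difference of centred log2 CPM over 6 libraries, were miR167 (0.172) and miR166 (0.203), against a median of 0.462 over 30 families. Those closest to summed miR828 and miR858 were miR168 (0.248) and miR894 (0.267), against a median of 0.549. These distances are descriptions across libraries that share their scaling.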

How the data were processed

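The authors deposited raw counts of mature sequences in 6 small RNA libraries, with a matched miRNA name, per the file headers. The submitters' processing notes name FastQC, HISAT2, Cufflinks and DESeq2 without a role. No label states how the small RNA reads were prepared, mapped or named. The listed sequences have 18 to 25 bases, and column totals cover listed miRNAs only, not library depth.

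Counts were tested with edgeR 4.0.16 (R 4.3.3; TMM, filterByExpr with a minimum count of 10, robust quasi-likelihood fit, walnut type as the only term), with Benjamini-Hochberg adjustment over 243 sequences or 37 families and a threshold of 0.05. Of the 47 members, 33 were not tested. A family is the sum of rows whose matched names share a number (miR156 includes miR157), scaled as the sequences. SE is the absolute log2 fold change divided by the square root of F. Shares were compared by exact permutation. Alternatives are those in the closing section, including DESeq2 1.42.0. Alignment of reverse complements (Biopython 1.88) scored 1 per match, −1 per mismatch, −2 for opening and −1 for extending a gap. Fits were also run on counts simulated with the spread that the fit itself estimated, which cannot test that estimate. Replicate libraries differed by a chi-square of 38.0 to 169 per degree of freedom over sequences, more than counting noise, which does not show that they are separate trees or extracts. Members, lists and comparisons were chosen with earlier results of these data known. Sequences named singly are all members with at least 60 counts. Named besides are jre-MIR828-1 (34 counts), the only miR828 row, and jre-MIR482-27 (56 counts), the highest row below that limit. Other families follow the comparison list or the 2 smallest profile distances among families of at least 100 mean CPM.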

Additional observations from a re-analysis of the deposited data

How the results depend on the processing

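The count of called sequences (28) became 62 in DESeq2 (29 higher, 33 lower), 17 with the replicate block, and 2 to 54 when single libraries were left out. Called members (1 of 14) numbered 2 of 14 under DESeq2 size factors, under total counts and when TMM left out the most abundant sequence. In that order, 31, 32 and 33 of all 243 tested sequences were called. Without a filter, 2 of 47 members and 40 of 931 sequences were called. Called members were 3 of 14 in DESeq2 and 0 of 14 with the replicate block. Over left-out libraries they were 0 to 2, with 14 to 19 members tested. Families called (5) became 8 in DESeq2 and 4 to 19 over left-out libraries. miR482 (−0.58 to −0.28) and miR858 (−0.60 to −0.24) kept a negative sign and did not pass in any alternative run. The log2 ratio of mean CPM over left-out libraries was −1.44 to −0.66 for miR828 and −1.91 to −0.60 for miR2118, both farthest without early-flowering replicate 3. The 22-base share of the superfamily differed by −9.66 to −5.80 points and the 5p-matched share by 5.81 to 9.68 points over left-out libraries, and by −11.5 and 11.6 points without jre-MIR482-2. The superfamily share of all listed counts differed by −2.61 points, and by −1.32 points without miR159 rows. The 22-base share of miR828 and miR858 was 0 points apart among rows of at least 60 counts, which hold no 22-base row, and −1.95 without jre-MIR858-3 (−0.0568 to −0.0138 over left-out libraries). Signs turned for jre-MIR482-28 (−0.004989 with total counts, −0.02958 with TMM without the most abundant sequence, −0.14 to 0.29 over left-out libraries), for jre-MIR482-5 (−0.01569, −0.05428, −0.008285 with at least 10 CPM in 3 libraries, −0.24 to 0.13) and for jre-MIR858-2 (−0.46 to 0.18). The cause was not tested. Over all tested sequences the median log2 value was 0.13, and 0.02 once TMM left out the most abundant sequence. jre-MIR482-23 passed in 6 of 13 alternatives and jre-MIR482-22 lost its call in 5 of 13, one of them the replicate block (edgeR adjusted p = 0.0679). Same-numbered libraries did not deviate together (correlations −0.11, −0.051 and −0.40) and each correlated best with another number. A looser filter put miR828 at log2 −0.90 (edgeR adjusted p = 0.240) and miR2118 at −0.82 (edgeR adjusted p = 0.377) with at least 10 CPM in 3 libraries.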
